A study of Mus musculus with 13 samples.

Results

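The 10 genes described here encode transcription factors of the cerebellar granule neuron lineage: Atoh1, Barhl1, Pax6, Zic1, Zic2, Neurod1, Neurod2, Nfia, Nfix and Etv1. They were listed by name and found among 22667 genes of the deposited expression table, and their 61 events were found among 253155 splicing events. The samples are 13 RNA-seq libraries of cerebellum from mice on the C57BL/6 background, wild type or knockout for Sam68, the RNA-binding splicing regulator encoded by Khdrbs1. Wild-type libraries came from postnatal day 1 (P1, libraries 8 and 9), P10 (libraries 5 and 6) and P30 (libraries 1, 2 and 3), and knockout libraries from P1 (13, 14 and 15) and P10 (10, 11 and 12), with no knockout at P30. No treatment is named for any group, and the sources used here do not give the knockout allele, the sex or the number of animals per library. Because nothing says that libraries came from separate mice, p-values measure only the spread between libraries, which may be technical.

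Granule neurons are the most numerous neurons of the brain. Their precursors leave the rhombic lip, cover the surface of the cerebellum as the external granular layer and divide there after birth under the drive of Sonic hedgehog. They then leave the cell cycle, extend parallel fibres and migrate inward past Bergmann glia to the internal granular layer, where they mature and receive mossy fibre input. Atoh1, a basic helix-loop-helix (bHLH) factor, specifies the precursors, and Barhl1, a homeobox factor, is known as one of its targets. Pax6, with a paired domain and a homeodomain, and the zinc finger factors Zic1 and Zic2 are present from precursors onward. The bHLH factors Neurod1 and Neurod2 act in differentiation and survival. Nfia and Nfix are nuclear factor I proteins that time maturation, and Etv1, an ETS factor, switches on genes of mature granule neurons.

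2 coding exons and a stretch of promoter are shown first. The Nfix exon is an event called below. The promoter stretch lies upstream of a RefSeq start inside an Nfix intron that was called below, while no start site was tested. Exon 5a is shown as the best known alternative exon of Pax6, although it was not called. Exon 5a of Pax6 (chr2:105524908-105524949 in mm9, plus strand) adds 14 codons to the paired domain and so changes which DNA the protein prefers. An Nfix exon of 123 nt (chr8:87247627-87247749 in mm9, minus strand) adds 41 codons. Both were matched by exon length and flanking intron lengths to GENCODE transcripts of GRCm38, in which exon 5a is coding in 5 of 9 transcripts that hold it and the Nfix exon in 3 of 3. Capitals mark the alternative exon, and lower case gives 20 bases of the neighbouring exon on each side, 5′ to 3′.
Pax6 exon 5a: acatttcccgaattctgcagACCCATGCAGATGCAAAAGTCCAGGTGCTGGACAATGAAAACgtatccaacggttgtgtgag
Nfix exon of 123 nt: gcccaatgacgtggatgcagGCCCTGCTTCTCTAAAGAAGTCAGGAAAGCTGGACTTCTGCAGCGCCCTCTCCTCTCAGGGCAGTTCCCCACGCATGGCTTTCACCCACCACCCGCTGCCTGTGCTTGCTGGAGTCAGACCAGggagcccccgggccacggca

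RefSeq lists 4 start sites for Nfix, and 1 of them lies inside a 1038 nt intron whose inclusion values are described below, 559 nt before that intron's downstream end. The 250 bases upstream of that start (GRCm38.p6, chr8:84772876-84773125, minus strand) are shown with a match to CAGATG in capitals. CAGATG and CAGCTG are E-box sequences, the kind of site that bHLH factors bind.
Nfix internal start: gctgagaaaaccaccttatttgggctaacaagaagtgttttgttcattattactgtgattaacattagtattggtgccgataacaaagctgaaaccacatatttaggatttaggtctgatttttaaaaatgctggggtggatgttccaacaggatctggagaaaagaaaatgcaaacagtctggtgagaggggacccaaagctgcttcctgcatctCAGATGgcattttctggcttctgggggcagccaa

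E-box matches were looked for because Atoh1 and the Neurod factors are bHLH proteins. RefSeq promoters (250 bases before to 50 after the start) were given for 9 of the 10 genes, in 15 entries, and none for Zic2. On either strand, CAGCTG was found in 3 of the 15 entries (both of Barhl1 and 1 of Nfix) and CAGATG in 4 (1 each of Etv1, Neurod2, Nfia and Nfix). Among all 32851 promoter entries, 16.3% held CAGCTG and 17.2% held CAGATG. The palindromic nuclear factor I motif and the ETS sequence CCGGAAGT were in none of the 15 entries and in 0.0365% and 3.89% of all entries. Overlapping matches counted separately, and a match describes letters only. The Barhl1 promoters are shown because Barhl1 fell most steeply with age beside Atoh1, with CAGCTG in capitals (GRCm38.p6, minus strand, chr2:28916669-28916918 and chr2:28912496-28912745).
Barhl1 upstream start: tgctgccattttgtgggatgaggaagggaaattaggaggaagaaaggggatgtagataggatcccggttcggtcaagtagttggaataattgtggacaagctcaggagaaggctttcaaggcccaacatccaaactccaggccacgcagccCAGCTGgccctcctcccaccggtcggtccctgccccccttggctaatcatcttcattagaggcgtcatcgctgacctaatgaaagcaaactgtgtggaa
Barhl1 downstream start: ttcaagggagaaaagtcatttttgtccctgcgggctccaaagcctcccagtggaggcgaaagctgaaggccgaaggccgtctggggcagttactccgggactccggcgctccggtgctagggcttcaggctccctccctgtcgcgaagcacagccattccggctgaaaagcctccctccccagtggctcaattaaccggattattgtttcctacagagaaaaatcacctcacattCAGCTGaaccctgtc

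Expression is given as cRPKM, an RPKM corrected for the mappable part of each transcript, so levels can be compared between genes. Changes are differences of mean log2(cRPKM + 1) with their standard error (SE), a scale that understates the change of low genes. They were tested with limma over 14063 genes and called at an adjusted p under 0.05, and all 10 listed genes passed the filter, which asked for 1 cRPKM or more as the mean of some group. Khdrbs1, the check of the labels, lay at 56.5 and 74.4 cRPKM in wild-type libraries of P1 and 4.22 to 8.5 in knockouts, and at 56.2 and 61.2 against 1.28 to 3.59 at P10. Depth of the expression table is not given and was estimated from the steps between its values. By this estimate the libraries differed by 42.7-fold, knockout P1 library 15 being the shallowest. The splicing table was deeper and more even, with exon-junction reads of 10.5 to 18.4 M a library, and its spliced reads gave a second readout, where 1 read may serve several events.

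Between P1 and P10 in wild type, 4 of the 10 genes rose and none fell, against 4.05% of all genes called in either direction and 2.2% higher. Neurod1, Etv1, Nfix and Nfia rose. All 10 estimates were above 0, with a median log2 difference of 1.06 against 0.01 over all genes tested. In bulk tissue, more cells of a type and more RNA per cell cannot be told apart. Between P10 and P30, 5 genes fell (Atoh1, Barhl1, Pax6, Nfia and Nfix) and Etv1 rose, against 14.7% of all genes called, 5.02% higher and 9.73% lower. The median was -0.82 against -0.13 over all genes. From P1 to P30, Etv1 and Neurod1 rose and Barhl1 and Atoh1 fell, against 25.4% called, 9.66% higher and 15.8% lower.

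**Figure D1:**
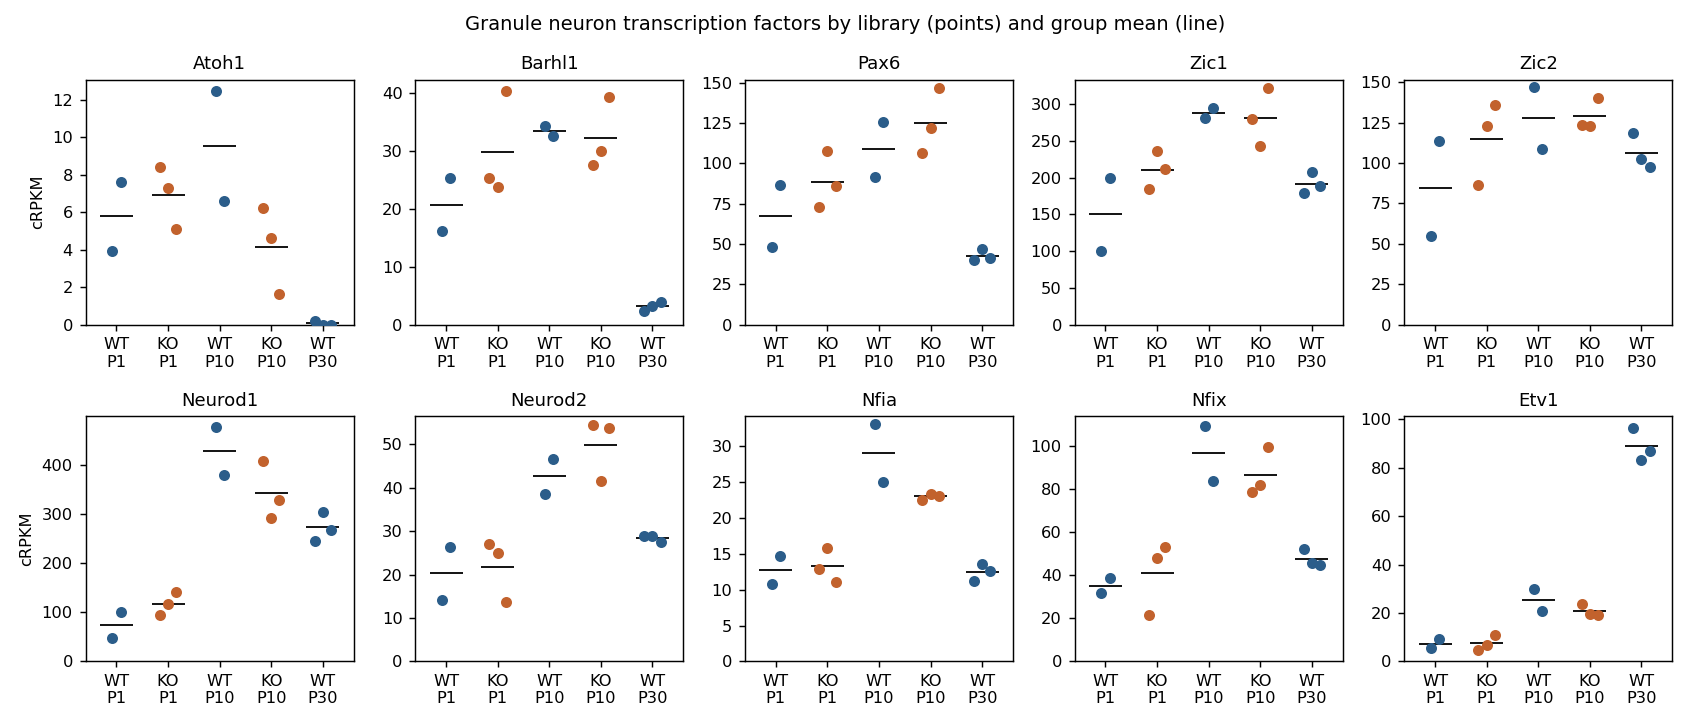
Expression (cRPKM, linear axes that start at 0) of the 10 genes in each of 13 libraries, with wild type (WT) in blue, Sam68 knockout (KO) in orange and a line at each group mean. Atoh1 and Barhl1 are lowest at P30, Etv1 is highest at P30, and Neurod1, Nfia and Nfix are highest at P10.

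The precursor factor Atoh1 had the lowest mean of the 10 genes in all 5 groups, although Etv1 was lower in knockout P1 libraries 13 and 14. Its wild-type level was 3.96 and 7.62 cRPKM at P1, 12.5 and 6.63 at P10, and 0.22, 0 and 0 at P30. In knockout libraries it was 8.4, 7.3 and 5.12 at P1 and 6.21, 4.63 and 1.62 at P10. The P30 libraries lay below every other library, while all other groups overlapped except wild type and knockout at P10. Few reads stand behind these values. From the steps of the table, 13 and 18 reads were recovered at wild-type P1, 9 and 33 at wild-type P10, 6, 22 and 1 at knockout P1, 20, 4 and 1 at knockout P10, and 1, 0 and 0 at P30. The zeros allow up to 0.36 and 0.484 cRPKM in P30 libraries 2 and 3, taking 3 reads as the limit and covering counting error only. Atoh1 fell by 3.25 ± 0.47 (SE) on the log2 scale from P10 to P30, with an adjusted p of 0.0006417, and fell by 2.61 ± 0.47 from P1 to P30, with an adjusted p of 0.001324 (limma).

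Barhl1, at higher levels, also had its highest mean at P10 and its lowest at P30 in wild type. The P10 minus P1 difference in wild type was not called for either gene. It was 0.63 ± 0.51 for Atoh1 (adjusted p = 0.6262) and 0.70 ± 0.31 for Barhl1 (adjusted p = 0.2894, limma). In knockout it was -0.72 ± 0.42 for Atoh1 and 0.14 ± 0.25 for Barhl1, again not called. Barhl1 lay at 16.2 and 25.3 cRPKM at wild-type P1, 34.3 and 32.6 at P10, and 2.37, 3.18 and 3.91 at P30. Knockout libraries had 25.3, 23.8 and 40.4 at P1 and 27.6, 30 and 39.4 at P10. Every P30 library lay below every younger library, and knockout and wild type overlapped at both ages. From P10 to P30 it fell by 3.07 ± 0.28 on the log2 scale, 8.397-fold on the log2(cRPKM + 1) scale, with an adjusted p of 2.554e-05 (limma). Spliced intron-junction reads showed the same levels in another unit, at 27.8 and 32.4 RPM (spliced reads scaled to the library's total of such reads) at wild-type P10 and 2.21 to 3.65 at P30.

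Pax6 was higher still and fell less far. Wild-type levels were 48.5 and 86.9 cRPKM at P1, 91.8 and 126 at P10, and 40.2, 47.0 and 41.4 at P30. Knockout levels were 72.8, 107 and 86.0 at P1 and 106, 122 and 147 at P10. From P10 to P30 it fell by 1.31 ± 0.25 on the log2 scale, with an adjusted p of 0.00411 (limma), a call lost without wild-type P10 library 6 (adjusted p = 0.06167). Its rise of 0.72 ± 0.27 from P1 to P10 did not pass the test in wild type (adjusted p = 0.2062), although the P10 libraries lay above those of P1. In exon-junction reads the Pax6 difference was of like size, 0.68, and was called (adjusted p = 0.02896), as was a P30 minus P1 difference of -0.66 (adjusted p = 0.008163) that was not called in cRPKM.

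The Zic factors kept high levels at every age. Zic1 measured 99.9 and 200.1 cRPKM at wild-type P1, 281 and 294 at P10, and 180, 207 and 188 at P30. Zic2 measured 55.1 and 114 at P1, 147 and 108 at P10, and 119, 103 and 97.7 at P30. In knockout libraries Zic1 was 185, 236 and 212 at P1 and 279, 242 and 322 at P10, and Zic2 was 86.3, 123 and 136 at P1 and 123, 123 and 140 at P10. In the main fit of cRPKM neither gene was called in any comparison. Zic1 came nearest, with a P10 minus P1 difference of 1.02 ± 0.26 on the log2 scale in wild type and an adjusted p of 0.05095 (limma). With a filter of at least 5 cRPKM, or with library weights, it was called (adjusted p of 0.04379 and 0.04492). In exon-junction reads this Zic1 difference was called, at 0.82 (adjusted p = 0.01153), and so was the P30 minus P10 difference, at -0.60 (adjusted p = 0.02187). The latter was also called in cRPKM in a fit of those 2 groups alone (-0.59, adjusted p = 0.01448). Wild-type P1 library 8 held the lowest value of both genes among all 13 libraries. Without it the sign of the P30 minus P1 estimate turned, from 0.43 to -0.06 for Zic1 and from 0.42 to -0.10 for Zic2. Without P1 library 9 these estimates became 0.93 for both and were called (adjusted p of 0.008208 and 0.03488), and the Zic1 rise from P1 to P10 was called too (1.52, adjusted p = 0.004233).

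Neurod1, needed for granule neurons to differentiate and survive, showed the largest rise of the 10 genes from P1 to P10. Its cRPKM was 48.2 and 99.8 at wild-type P1, 477 and 379 at P10, and 245, 304 and 268 at P30, the highest level of the 10 genes in every P10 and P30 library. Knockout libraries measured 93.8, 117 and 140 at P1 and 408, 292 and 329 at P10. The wild-type rise was 2.60 ± 0.30 on the log2 scale, 6.05-fold, with an adjusted p of 0.0005529, and it was called without any 1 of the 4 libraries (limma). The P30 libraries lay below both wild-type P10 libraries, but the P30 minus P10 difference of -0.65 ± 0.27 did not pass the test (adjusted p = 0.1451, or 0.02386 in a fit of those 2 groups alone). In spliced intron-junction reads Neurod1 was at 145 and 278 RPM at wild-type P1 and 1393 and 1088 at P10.

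Neurod2, a relative with a related role in neuronal differentiation, stayed far below Neurod1. It was at 14.2 and 26.4 cRPKM at wild-type P1, 38.6 and 46.7 at P10 and 28.9, 28.9 and 27.4 at P30. Knockout values were 26.9, 24.9 and 13.6 at P1 and 54.4, 41.4 and 53.8 at P10. In wild type the P10 minus P1 difference of Neurod2, 1.09 ± 0.33, missed the threshold (adjusted p = 0.09445) but was called with library weights (0.03427, limma). Its P30 minus P10 difference of -0.56 ± 0.30 was not called (adjusted p = 0.2521, or 0.02549 in a fit of those 2 groups alone). In knockout Neurod2 rose by 1.203 ± 0.27 from P1 to P10, with an adjusted p of 0.01436 that became 0.05519 without library 10 (limma). Whether the rise differs between genotypes was tested by the interaction term, which was 0.11 ± 0.42 with an adjusted p of 0.9627.

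The nuclear factor I genes peaked at P10. Nfia was at 10.8 and 14.7 cRPKM at wild-type P1, 33.1 and 25.1 at P10 and 11.2, 13.6 and 12.6 at P30. Nfix was at 31.7 and 38.5 at P1, 109 and 83.6 at P10 and 52.3, 45.5 and 44.5 at P30. In knockout libraries Nfia was 12.96, 15.9 and 11.03 at P1 and 22.6, 23.4 and 23.1 at P10, and Nfix was 21.6, 47.9 and 53.2 at P1 and 78.5, 81.9 and 99.3 at P10. Both P10 libraries of each gene lay above all P1 and P30 wild-type libraries.

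Nfia rose by 1.13 ± 0.24 on the log2 scale from P1 to P10 and fell by 1.15 ± 0.22 from P10 to P30, with adjusted p of 0.01954 and 0.003829 (limma). The Nfia difference of P30 minus P1 was -0.02 in cRPKM and not called. In exon-junction reads it was -0.52 and was called (adjusted p = 0.04927, limma). Nfix rose by 1.43 ± 0.34 and fell by 0.999 ± 0.31, with adjusted p of 0.03464 and 0.04704. Both Nfix calls were lost when any 1 of the libraries compared was left out, with adjusted p of 0.07548 to 0.2536 for the rise and 0.08681 to 0.2848 for the fall. The P10 to P1 calls of Nfia and Etv1 were lost without wild-type P1 library 8 or P10 library 5, with adjusted p of up to 0.1767 and 0.1454. In exon-junction reads, whose depth is more even, Nfix was at 346 and 408 RPM at wild-type P1, 992 and 880 at P10, and 392 to 486 at P30.

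Etv1 rose at both steps. It measured 5.54 and 9.17 cRPKM at wild-type P1, 29.98 and 20.6 at P10, and 96.6, 83.3 and 86.7 at P30, with no overlap between ages. Knockout libraries had 4.89, 6.96 and 10.7 at P1 and 23.9, 19.4 and 19.3 at P10. The rise from P1 to P10 was 1.67 ± 0.32 on the log2 scale (adjusted p = 0.01191) and that from P10 to P30 was 1.79 ± 0.29 (adjusted p = 0.001492). From P1 to P30 it came to 3.46 ± 0.29, 11-fold, with an adjusted p of 5.444e-06 (limma). Exon-junction reads gave 17.2 and 21.6 RPM at wild-type P1, 98.6 and 66.2 at P10 and 242 to 281 at P30.

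**Figure D2:**
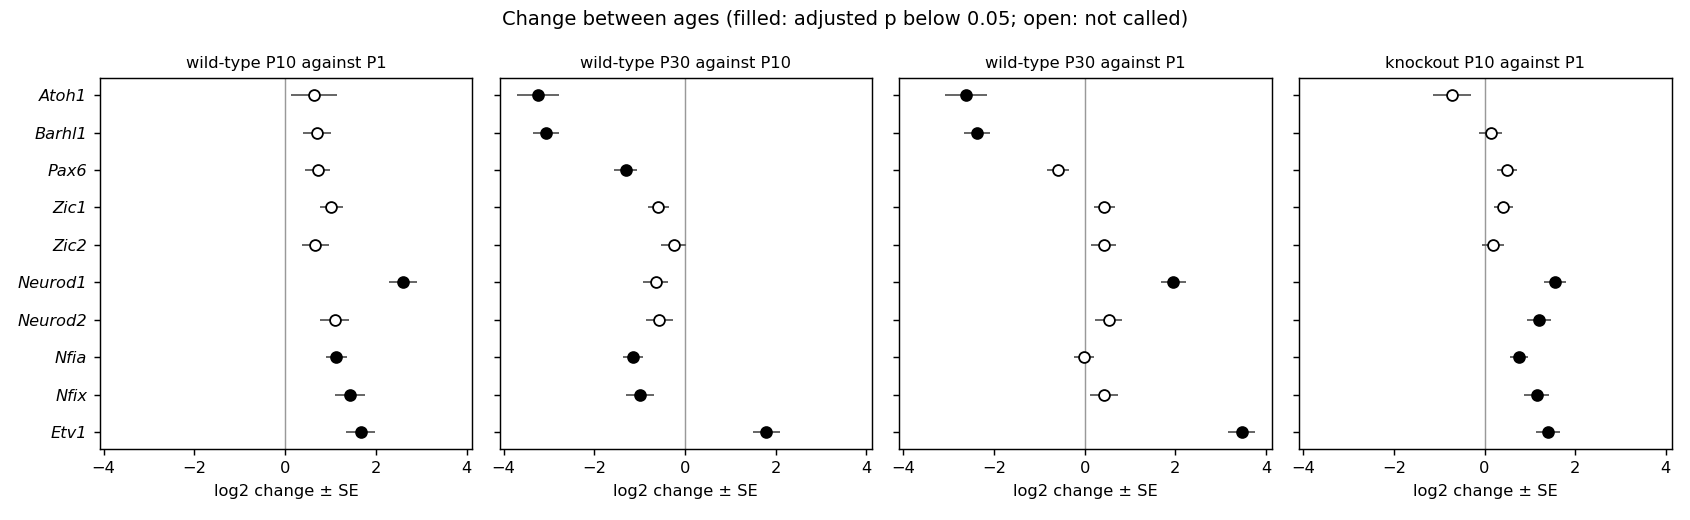
Difference of mean log2(cRPKM + 1) between ages (points) with its standard error (bars) for the 10 genes in 4 comparisons, filled where the adjusted p was below 0.05. Neurod1 has the largest rise from P1 to P10 in both genotypes, and Etv1 is alone above 0 from P10 to P30.

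In the knockout, 5 of the 10 genes rose from P1 to P10 and none fell, against 10.2% of all genes called and 5.58% higher. Neurod1 rose by 1.55 ± 0.24 on the log2 scale, Etv1 by 1.41 ± 0.26, Neurod2 by 1.203 ± 0.27, Nfix by 1.16 ± 0.27 and Nfia by 0.76 ± 0.19. The corresponding adjusted p were 0.002193, 0.005772, 0.01436, 0.02035 and 0.02862 (limma). Calls of Neurod1 and Etv1 held without any 1 of the 6 libraries. That of Nfia was lost without library 10, 11, 12, 13 or 15 (adjusted p of up to 0.07794), and that of Nfix without library 11 or 12 (up to 0.05909). In a fit of these 2 groups alone the calls of Etv1, Neurod2, Nfix and Nfia were lost (adjusted p of 0.06371, 0.06876, 0.1163 and 0.1323), and that of Nfia was also lost in exon-junction reads (0.08884).

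By their order at P10 in wild type, the mean levels fell from Neurod1 (428 ± 69.0 cRPKM, SD, n = 2) to Zic1 (288 ± 9.22), Zic2 (128 ± 27.3), Pax6 (109 ± 23.9) and Nfix (96.4 ± 18.1). Neurod2 (42.6 ± 5.72), Barhl1 (33.5 ± 1.202), Nfia (29.1 ± 5.64), Etv1 (25.3 ± 6.60) and Atoh1 (9.55 ± 4.12) followed. The library values of Zic2, Pax6 and Nfix overlapped one another, Barhl1 overlapped Nfia, and Nfia overlapped Etv1. At P30 Etv1 (88.9 ± 6.91, n = 3) stood below Neurod1 and the Zic genes and above Nfix (47.4 ± 4.21), Pax6 (42.9 ± 3.59) and Neurod2 (28.4 ± 0.85), and Barhl1 (3.15 ± 0.77) and Atoh1 came last.

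Sam68 knockout and wild type were then compared at each age, which asks whether the factors depend on Sam68. None of the 10 genes was called at P1, at P10 or for the difference between the 2 effects by limma, against 0.0356%, 0.00711% and 0.0142% of all genes called. At an unadjusted p under 0.05 there were 2, 1 and 1 of the 10, against 6.78%, 5.32% and 5.18% of all genes. At P1 all 10 estimates were above 0, from 0.01 to 0.72 on the log2 scale with a median of 0.34 against -0.04 over all genes, and the libraries of the genotypes overlapped for every gene. The largest were Neurod1 (0.72 ± 0.27, adjusted p = 0.704) and Zic1 (0.57 ± 0.24, adjusted p = 0.7244). Leaving out 1 library moved Neurod1 between 0.21 and 1.24 and Zic1 between 0.07 and 1.06, the low ends without wild-type P1 library 8 and the high ends without library 9. Among the other genes only Pax6 kept its sign in every alternative setting, from 0.011 to 0.84, while Etv1 ran from -0.571 to 0.326. Some lists described below, sharing no gene with the 10, also had P1 medians above 0. These were 0.463 for granule cell precursor genes, 0.54 for Purkinje cell genes and 0.228 for family relatives. Oligodendrocyte genes (-1.11) and mature granule cell genes (-0.132) lay below 0.

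At P10 the estimates ran from -1.10 to 0.22 with a median of -0.11. Atoh1 was lowest, at -1.10 ± 0.47 (adjusted p = 0.8837), with knockout libraries at 1.62 to 6.21 cRPKM below the wild-type 6.63 and 12.5. Nfia also did not overlap, at 22.6 to 23.4 in knockout against 25.1 and 33.1, with a difference of -0.31 ± 0.22 (adjusted p = 0.9057). The change of effect from P1 to P10 was largest for Atoh1, at -1.35 ± 0.66, and Neurod1, at -1.05 ± 0.39 (adjusted p = 0.8545 for both). A p that misses the threshold does not show that the genotypes had the same level.

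**Figure D3:**
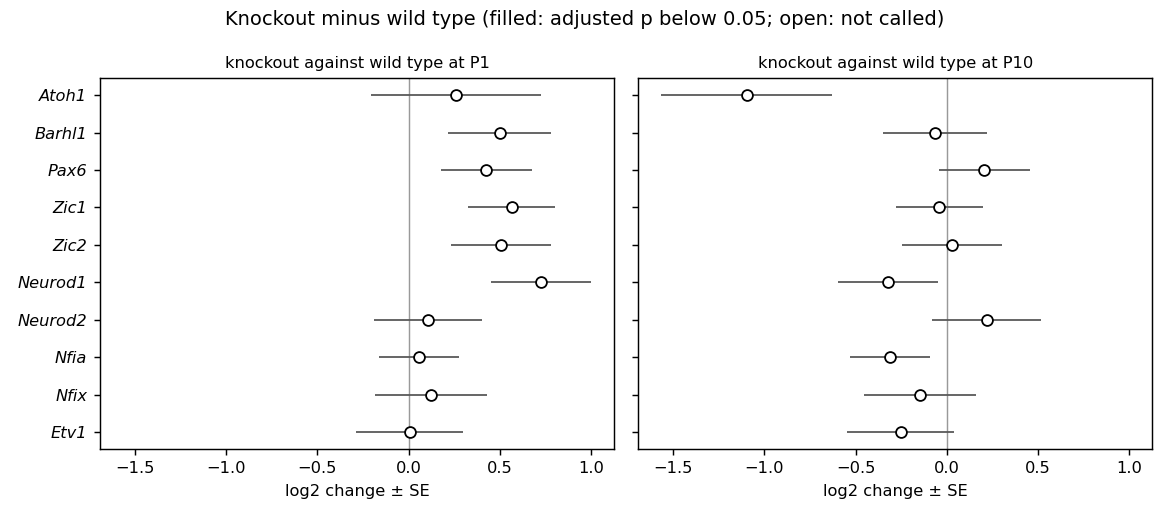
Knockout minus wild type in mean log2(cRPKM + 1) (points) with its standard error (bars) for the 10 genes at P1 and P10. All 10 points lie above 0 at P1, and Atoh1 lies lowest at P10, at -1.10; none was called.

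Summed markers of other cells differed between the genotypes at P1 beside these estimates. The 8 markers of midbrain and caudal hindbrain summed to 30.7 and 30.5 cRPKM in wild type against 25.8, 22.9 and 14.02 in the knockouts. In the shallow knockout library 15 Otx2 was the only marker of that list above 0. Purkinje cell markers summed to 169 and 315 in wild type and 354 to 450 in knockout, and oligodendrocyte markers to 81.95 to 105 against 31.1 to 67.9. Red blood cell markers summed to 149.7 and 257 in the wild-type libraries against 1.66, 140.4 and 6.06. At P10, choroid plexus markers summed to 272 and 1.47 in wild type against 281 to 655, and red blood cell markers to 0 and 10.9 against 22.5 to 168. Knockout P10 library 12, which had the lowest Atoh1 of the P10 libraries, also had the lowest oligodendrocyte sum, 1490 against 1671 to 2835, and without it the Atoh1 difference was -0.67, again not called. No gene of these 5 lists was called between genotypes, and the part of these differences in the estimates above was not tested.

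Other transcription factors of the same families were set beside the 10 genes. Of 10 relatives, Nfib and Nfic rose in wild type from P1 to P10 and none fell, against 2.2% of all genes higher. From P10 to P30, 1 rose and 5 fell, against 5.02% higher and 9.73% lower. Nfib, like Nfia and Nfix, peaked at P10, with 29.9 and 38.7 cRPKM at P1, 85.1 and 82.7 at P10, and 19.98 to 25.5 at P30. It rose by 1.28 ± 0.22 and fell by 1.84 ± 0.20 on the log2 scale (adjusted p of 0.006323 and 8.657e-05, limma). Nfic rose at both steps instead, from 10.3 and 11.1 at P1 to 29.4 and 30.2 at P10 and 49.1 to 57.2 at P30, and its second rise was 0.82 ± 0.23 (adjusted p = 0.03372).

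Among the Zic relatives, Zic4 fell by 1.57 ± 0.25 and Zic5 by 1.22 ± 0.29 from P10 to P30 (adjusted p of 0.001395 and 0.01561), where Zic1 and Zic2 were not called. Neurod6 fell by 2.01 ± 0.24 from P10 to P30, from 17.4 and 23.9 cRPKM to 4.07 to 4.69, and Neurod4, the lowest of the family, by 2.53 ± 0.44. Barhl2, the close relative of Barhl1, was at 3.62 and 5.80 at wild-type P1, 27.8 and 18.5 at P10 and 20.3 to 24.99 at P30, with no call in wild type. In the knockout Barhl2 rose from P1 to P10 by 2.50 ± 0.65 (adjusted p = 0.03021). The ETS relatives Etv4 and Etv5 were not called in wild type, and Etv5 fell from P1 to P10 in the knockout by 1.26 ± 0.29 (adjusted p = 0.01748).

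Lists of markers gave the course of the lineage around these factors, none of them sharing a gene with the 10. Of 10 granule cell precursor genes, none was called from P1 to P10 in wild type and 6 fell from P10 to P30, against 9.73% of all genes lower, with a median of -2.51 on the log2 scale against -0.13 over all genes. Top2a, a topoisomerase of dividing cells, and Mki67, a proliferation marker, fell by 5.22 ± 0.30 and fell by 5.52 ± 0.34. Of 10 maturing granule cell genes, 9 fell from P10 to P30, with a median of -2.14, among them Dcx, a microtubule protein of migrating neurons, at -5.78 ± 0.27. From P1 to P10, 3 of them rose (Cntn2, Nhlh2 and Nhlh1) and Tubb3 fell, against 2.2% of all genes higher and 1.85% lower.

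Mature granule cell genes ran the other way. Of 10, 6 rose from P1 to P10 and 9 from P10 to P30, and all 10 from P1 to P30, against 2.2%, 5.02% and 9.66% of all genes. Their median change was 2.79, 1.97 and 4.64 on the log2 scale, against 0.01, -0.13 and -0.13 over all genes. Gabra6, a GABA-A receptor subunit of granule neurons, rose by 5.82 ± 0.53 from P1 to P10 and by 8.12 ± 0.48 from P1 to P30. In the knockout 7 of the 10 rose from P1 to P10, against 5.58% of all genes, with Gabrd at 5.12 ± 0.20. Knockout P10 library 12 stood apart in this list, with a sum of 385 cRPKM against 591 to 721 in the other P10 libraries and Gabra6 at 17.8 against 65.1 to 81.9. No gene of the 3 lists was called between genotypes at either age. At P1 the precursor sum was 176 and 325 cRPKM in wild-type libraries 8 and 9 and 271 to 320 in knockout.

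**Figure D4:**
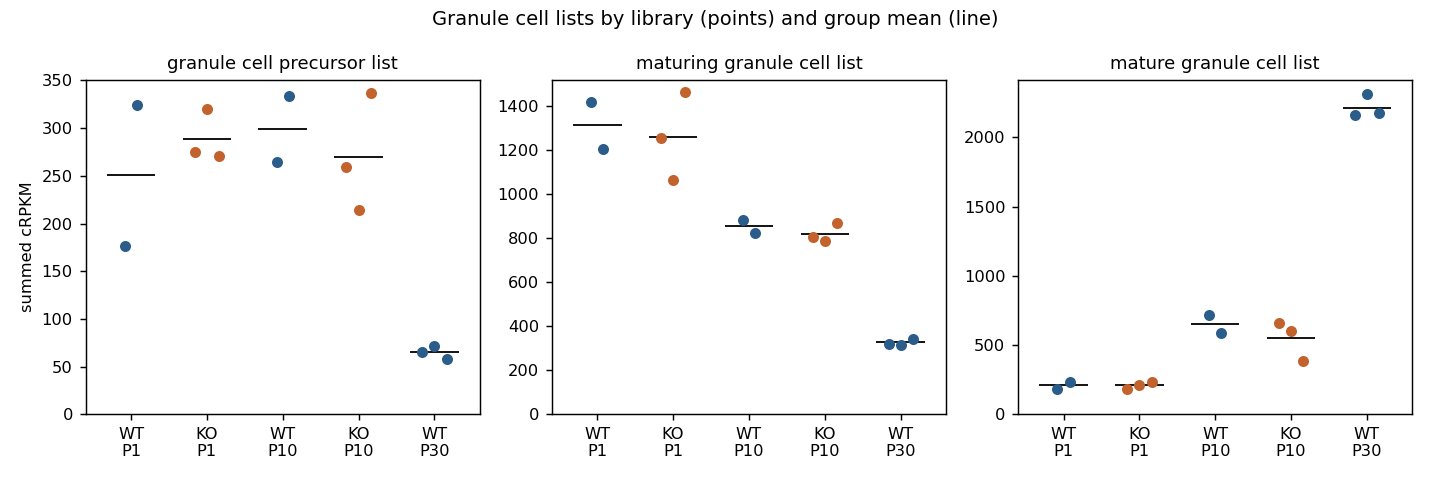
Summed cRPKM (linear axes that start at 0) of 10 granule cell precursor, 10 maturing and 10 mature granule cell genes in each of 13 libraries, with a line at each group mean. The precursor and maturing lists are lowest at P30 and the mature list is highest there, at 2163 to 2310.

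The genes whose levels ran most like each factor were found by Pearson correlation of log2(cRPKM + 1) over 13 libraries, among 7178 genes with a standard deviation of at least 0.5. The libraries share ages and depth, so these values are descriptions. Adcy1 and Dgkz were among the 3 genes closest to Etv1 (0.989 and 0.987). Barhl1 ran closest to Igfbpl1, Ptma and Pdzrn3 (0.99, 0.99 and 0.986), and Atoh1 to Dennd2a, Apex1 and Pbk (0.964, 0.959 and 0.957). For Neurod1 they were Unc5b, Cadps2 and Cntn2 (0.97, 0.968 and 0.957), and for Nfia they were Mtss1, Bmp4 and its own relative Nfib (0.960, 0.945 and 0.941). Pax6 ran closest to Phf21b (0.952), Neurod2 to Phf20l1 (0.920), Nfix to Nexn (0.917), Zic1 to Zfp238 (0.891) and Zic2 to Krcc1 (0.878). Within the 10, the closest pairs were Barhl1 and Pax6 (0.868), Atoh1 and Barhl1 (0.854) and Zic1 and Zic2 (0.852), and the most opposed were Atoh1 and Etv1 (-0.764).

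The inclusion table listed 61 events of 8 of the genes, and none for Atoh1 or Neurod2. Pax6 had 20, Nfia and Nfix 14 each, Etv1 4, Zic1 and Zic2 3 each, Barhl1 2 and Neurod1 1. Of these, 14 or 15 per comparison had enough reads and a mean inclusion (PSI) between 5 and 95, in Pax6, Nfix, Nfia, Barhl1 and Etv1. An event was called at an adjusted p under 0.05 with a difference of at least 10 points of PSI. From P10 to P30 in wild type 2 of 15 rose and 1 fell, against 2.98% of all events called, 2.07% higher and 0.918% lower. From P1 to P30 2 of 14 rose and 1 fell, against 10.1% called, 6.18% higher and 3.9% lower. From P1 to P10 none of 14 was called in either genotype, against 0.665% in wild type and 0.865% in knockout. An unadjusted p under 0.05 was found for 4 of the 14 in wild type and 1 in knockout, against 12.1% and 11.3% of all events.

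The 123 nt exon of Nfix lost inclusion with age. Its PSI was 92.4 and 94.5 at wild-type P1, 89.0 and 86.4 at P10, and 52.9, 51.5 and 56.9 at P30, with 1483 to 6344 reads a library. Knockout libraries had 94.7, 93.6 and 93.0 at P1 and 88.8, 91.2 and 87.4 at P10. The P30 libraries lay far below all others, and those of P10 below those of P1 in both genotypes. From P10 to P30 the difference was -33.9 points with an adjusted p of 2.839e-05, and it stayed between -35.5 and -32.7 without any 1 library (limma). From P1 to P10 it was -5.73 points in wild type (adjusted p = 0.07808) and -4.64 in knockout (adjusted p = 0.05338), neither of them called.

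A second event of Nfix was the 1038 nt intron upstream of its 532 nt exon (chr8:87296215-87297252 in mm9). The deposited PSI was 20.9 and 17.5 at wild-type P1, 20.9 and 18.2 at P10, and 52.1, 54.0 and 54.3 at P30, and 11.95 to 22.1 in the 6 knockout libraries. The rise from P10 to P30 was 33.9 points with an adjusted p of 0.0005539 (limma). The reads behind it were unequal at the ends of the intron. The quality field gives reads across one end, reads across the other end and spliced reads, and does not name which end is which. In all 13 libraries the first number was 0 to 5 and the second 85 to 1032.

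At wild-type P10, libraries 5 and 6 had 2 and 2 reads at the first end, 1032 and 819 at the second, and 3269 and 3071 spliced. At P30, libraries 1, 2 and 3 had 1, 5 and 1 at the first end, 693, 512 and 522 at the second, and 532, 366 and 367 spliced. Second-end reads thus made up 21.1% and 24.0% of second-end and spliced reads together at P10 and 56.6% to 58.7% at P30, while first-end reads stayed at or below 1.35% of first-end and spliced reads. The PSI of this event therefore rests almost wholly on reads across 1 end of the intron. This is the intron that holds the RefSeq start site whose upstream bases are printed above. RefSeq and the files use different builds, and the 1038 nt intron of Nfix is the only one of that length in its GENCODE models.

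A 148 nt exon of Nfix showed smaller values. It was at 19.0 and 16.6 PSI at wild-type P1, 16.4 and 18.4 at P10 and 28.9, 27.3 and 23.1 at P30. Its P30 minus P1 difference of 8.68 points had an adjusted p of 0.03244 but stayed under the 10-point minimum.

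**Figure D5:**
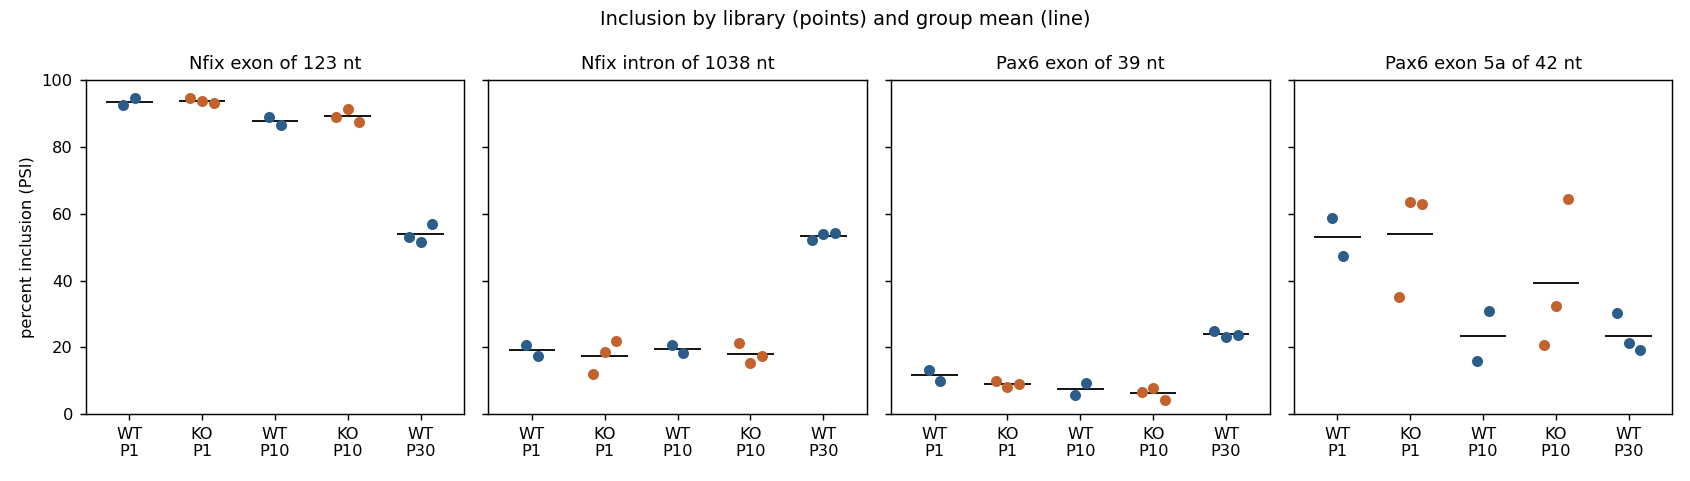
Percent inclusion (PSI, 0 to 100) of 4 events in each of 13 libraries, with a line at each group mean. The Nfix exon falls from about 90 to 51.5 to 56.9 at P30, the Nfix intron and the Pax6 exon of 39 nt rise at P30, and exon 5a of Pax6 spreads widely within groups.

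In Pax6, an exon listed at 39 nt near the 5′ side of the gene (chr2:105515670-105515708 in mm9) rose at P30. It was at 13.4 and 10.07 PSI at wild-type P1, 5.80 and 9.44 at P10 and 24.95, 22.99 and 23.7 at P30, above every other library, and at 4.31 to 10.09 in knockout. From P10 to P30 it rose by 16.3 points (adjusted p = 0.005333), a call lost without wild-type P10 library 5 (adjusted p = 0.07969). The rise of 12.2 points from P1 to P30 (adjusted p = 0.03) was lost without any 1 of the 5 libraries, with adjusted p of 0.05568 to 0.201 (limma). No GENCODE transcript of Pax6 holds an exon of 39 nt, so its place in the message is not described.

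Exon 5a of Pax6 was not called in any comparison. Its PSI was 58.7 and 47.3 at wild-type P1, 15.9 and 30.9 at P10, and 30.2, 21.3 and 19.1 at P30, with the 5 older libraries below both P1 libraries. Knockout libraries had 35.2, 63.4 and 62.9 at P1 and 20.8, 32.4 and 64.5 at P10. Knockout P10 library 12 thus lay just above the highest P1 value, and knockout P1 library 13 near the values of the other P10 libraries. The differences were -29.6 points from P1 to P10 in wild type (adjusted p = 0.3328) and -29.5 from P1 to P30 (adjusted p = 0.1029, or 0.01547 in a fit of those 2 groups alone, limma). Between 315 and 1204 reads stood behind each value, so counting error is small beside this spread.

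The same 2 knockout libraries stood apart in a Pax6 intron of 675 nt. Library 12 had 15.02 PSI against 4.91 and 6.07 in the other P10 knockouts, and library 13 had 6.69 against 13.4 and 11.4 in the other P1 knockouts. A 151 nt exon of Pax6 was at 71.1 in library 12 and 81.9 to 94.98 in the other libraries younger than P30. In the Nfix exon of 123 nt library 13 was at 94.7, just above the 92.4 to 94.5 of the other P1 libraries, and library 12 was at 87.4, within the 86.4 to 91.2 of the other P10 libraries. With knockout P10 library 12 and knockout P1 library 13 left out together, a setting chosen after the values were seen, 1 event of 14 was called from P1 to P10 in the knockout in place of none.

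No tested event of these genes was called between Sam68 knockout and wild type. None of 14 passed the test at P1, at P10 or for the difference of effects by limma, against 0.0242%, 0.0309% and 0% of all events. At an unadjusted p under 0.05 there were 0, 1 and 0, against 4.56%, 4.44% and 2.58% of all events. The 123 nt exon of Nfix differed by 0.35 points at P1 and 1.44 at P10, and its 1038 nt intron by -1.64 and -1.38. The largest difference was 15.8 points for exon 5a at P10 (adjusted p = 0.9997), where library 12 alone exceeded the wild-type values by far.

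Counting may mix genes on opposite strands. In GENCODE, 5 of the 10 genes (Neurod1, Nfia, Nfix, Pax6 and Zic1) overlap a gene on the other strand, among them Zic1 and Zic4, over 3398 bases, and Pax6 and Pax6os1. The kit keeps strand, but whether the authors counted by strand is not given in the sources used here, so reads of such pairs cannot be told apart.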

How the data were processed

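The labels describe 13 RNA-seq libraries from a stranded kit. FastQC and Trimmomatic were used and the build was mm9, per the submitters' processing notes, while the sources used here do not give the aligner or the counting program. The authors deposited expression as cRPKM, an RPKM per mappable length, for 22667 genes, of which 1114 without a value in a library were left out. They deposited inclusion as percent (PSI) with a quality field of read numbers. Expression was fitted as log2(cRPKM + 1) with limma 3.58.1 (R 4.3.3), 13 libraries in 5 groups (8 residual degrees of freedom) with an intensity-dependent prior, for genes with a group mean of at least 1. Inclusion was fitted as log2 odds with 0.5 reads added to each side, for events with at least 10 reads a library and a mean PSI of 5 to 95, with a prior by read depth. P-values were adjusted by Benjamini-Hochberg over all features of a comparison. The scripts were tested on simulated data. The recovered reads of Atoh1, Neurod2 and Etv1 rest on values within 0.1 of a whole read, and libraries were not paired. The genes, relatives, lists, tests and naming rule (the 10 genes and relatives throughout, leading list genes by smallest p, events called or with p under 0.05, exon 5a, and the 3 most alike genes) were chosen with earlier results of these data known. Some genes this rule names are not reported here.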

Additional observations from a re-analysis of the deposited data

How the results depend on the processing

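No paired analysis was possible because the replicate numbers are unique to each library and the groups compared share none. Alternatives were another pseudocount, no or a stricter filter, quantile scaling, library weights, other priors, only the groups compared, junction reads, read minimums, and leaving out libraries. The direction of every called change from age to age held in each alternative that gave it a value; Atoh1 and Neurod2 have none in junction reads, and Barhl1 and Neurod1 none in exon-junction reads. Of the single genes and events, 48 values lost a call, 30 gained one and 734 kept their side. Counts of called genes or events moved by over 1.5 times in these cases. From P1 to P10 in wild type the 4 called genes became 1 to 4 on leaving out 1 library, the 1 without P1 library 8 or P10 library 5, and 2 without P1 library 8 and knockout P1 library 15 together. From P1 to P10 in knockout the 5 became 1 with only the groups compared, 2 of 5 genes in exon-junction reads, 3 of 8 in spliced intron-junction reads, and 3 to 5 on leaving out 1 library. The 3 called events from P1 to P30 became 5 with no minimum PSI difference, and the 0 in knockout became 1 without P10 library 12 and P1 library 13 together. Signs of uncalled differences turned. For Nfia from P1 to P30 (main -0.020) the value was 0.081 with quantile scaling and -0.521, a call, in exon-junction reads. It ran from -0.223 to 0.183 on leaving out 1 wild-type library, above 0 without P1 library 9 or P30 library 1. Over the same leave-outs Zic1 ran from -0.064 to 0.931 and Zic2 from -0.102 to 0.932, below 0 without P1 library 8, and at -0.064 and -0.102 without it and knockout P1 library 15 together. In knockout from P1 to P10, Barhl1 ran from -0.009 to 0.37, below 0 without library 12 or 14, and Zic2 from -0.009 to 0.316, below 0 without library 13. The cause was not tested. Of 26 other knockout differences, 18 changed sign in an alternative and 0 were called. Depth limits Atoh1 most, with at most 33 reads in a library.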
